A study of Mus musculus with 6 samples.

Results

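The 10 genes described here encode proteins of the muscle Z-disc, the I-band of titin and the cell's attachment sites that are known for their response to stretch, load or sarcomere damage. They are Igfn1, Ky, Flnc, Xirp1, Xirp2, the muscle ankyrin repeat genes Ankrd1, Ankrd2 and Ankrd23, Csrp3 and Myot. Each was found once, by its Ensembl identifier, among the 54532 genes of the count table, and all 10 passed the filter on low counts. The group was selected on results of these data: its members were chosen with the differences between control and Myf5Cre-Pcyt2 muscle already known. Their levels and fold changes between the groups are therefore given as a description, and no p-value is printed for a member. Members are still marked as called where they passed the threshold of the test described below. Such a call is no separate evidence of a group difference. Nor is its return when the same libraries were fitted under other settings.

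The samples were quadriceps muscles taken from chow-fed mouse pups at 10 days of age, each sequenced as 1 RNA library. Control pups carried floxed alleles of Pcyt2 (genotype Pcyt2 flox/flox). Pups of the other group, Myf5Cre-Pcyt2, were on the same background and had muscle deficient in Pcyt2, which encodes an enzyme of phosphatidylethanolamine synthesis. There were 3 libraries per group. In Myf5Cre-Pcyt2 mice Cre is made from Myf5, a gene of muscle precursors that is also active in precursors of brown fat. The labels do not say that controls carry Cre, and loss of Pcyt2 and presence of Cre cannot be told apart. Which part of Pcyt2 was deleted is not stated in the labels.

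A sarcomere is anchored at each end in the Z-disc, where actin filaments and the springlike N-terminal part of titin are held by alpha-actinin and a mesh of adaptor proteins. When muscle is stretched, loaded or injured, some of these adaptors are made in larger amounts, leave the Z-disc for the nucleus, or gather at the damaged site. The muscle ankyrin repeat proteins bind titin's N2A region, and Ankrd2 is typical of slow fibres. Filamin C, encoded by Flnc, crosslinks actin at Z-discs and attachment sites, and the Xin repeat proteins Xirp1 and Xirp2 bind it or actin at myotendinous junctions and at sites of repair. Ky is a protease-like protein whose loss causes kyphoscoliosis in mice, and it binds both filamin C and Igfn1, a protein of immunoglobulin and fibronectin domains at the Z-disc.

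Upstream sequences are shown for members called in either direction, because a reader may want to see what letters precede genes that differ between the groups. A RefSeq (GRCm38.p6) sequence was used for 8 of the 10 members. No entry was found for Xirp1. Entries on the chromosome of Myot were left out of the search, so whether Myot has one was not checked. The sequence of Ky is not printed, since all of its bases lie in an annotated exon. Each sequence is the 250 bases before the RefSeq start, 5′ to 3′ on the gene's strand. Capitals mark letters found by a search of both strands for 4 motifs of muscle promoters: the TEAD motif MCAT (CATTCC, or GGAATG on the other strand), the E-box of myogenic regulators (CANNTG), the MEF2 motif and the CArG box of serum response factor. The 3 members called higher come first, with Igfn1 at chr1:136006343-136006592, minus strand, Flnc at chr6:29433006-29433255, plus strand and Ankrd2 at chr19:42035777-42036026, plus strand. Of the Ankrd2 sequence, 27 bases lie in an annotated GENCODE exon.
Igfn1: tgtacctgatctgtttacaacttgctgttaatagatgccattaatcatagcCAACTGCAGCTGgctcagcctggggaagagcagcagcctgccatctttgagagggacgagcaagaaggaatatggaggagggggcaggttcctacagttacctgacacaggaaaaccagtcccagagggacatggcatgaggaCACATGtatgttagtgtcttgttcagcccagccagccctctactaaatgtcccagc
Flnc: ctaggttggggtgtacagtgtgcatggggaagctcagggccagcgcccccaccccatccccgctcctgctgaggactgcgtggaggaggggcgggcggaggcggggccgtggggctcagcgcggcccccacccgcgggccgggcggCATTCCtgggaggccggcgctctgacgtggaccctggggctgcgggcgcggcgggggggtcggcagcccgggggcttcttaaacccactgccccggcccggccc
Ankrd2: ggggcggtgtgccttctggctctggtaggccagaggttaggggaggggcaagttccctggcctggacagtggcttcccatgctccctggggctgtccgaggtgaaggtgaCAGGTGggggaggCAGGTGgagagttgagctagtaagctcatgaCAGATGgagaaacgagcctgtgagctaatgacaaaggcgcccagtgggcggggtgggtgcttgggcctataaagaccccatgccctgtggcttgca
The next are members called lower, with Ankrd23 at chr1:36535740-36535989, minus strand, and Xirp2 at chr2:67445752-67446001, plus strand. The Ankrd23 sequence lies inside the longer GENCODE gene but in none of its exons.
Ankrd23: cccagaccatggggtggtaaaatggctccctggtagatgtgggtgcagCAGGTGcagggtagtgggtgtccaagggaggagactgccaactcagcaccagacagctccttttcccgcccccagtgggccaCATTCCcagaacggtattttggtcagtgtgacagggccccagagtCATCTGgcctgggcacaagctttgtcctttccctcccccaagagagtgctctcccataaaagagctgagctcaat
Xirp2: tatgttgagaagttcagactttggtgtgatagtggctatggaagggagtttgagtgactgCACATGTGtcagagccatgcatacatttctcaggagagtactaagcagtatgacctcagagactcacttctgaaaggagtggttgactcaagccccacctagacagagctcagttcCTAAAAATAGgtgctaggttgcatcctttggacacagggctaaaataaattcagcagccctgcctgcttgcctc

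The MCAT letters were found upstream of 3 of the 8 members searched, against 12.6% of 32851 promoters of the same length. Those members were Flnc (1 match, starting 104 bases upstream), Ankrd23 (1 match, 120 bases upstream) and Ankrd1 (2 matches, 210 and 123 bases upstream). All 250 bases searched for Ankrd1, like those for Ky, lie in an annotated GENCODE exon. Both members stay in the motif counts given here. E-box letters stood upstream of 7 of the 8, against 66.2% of all promoters, and Flnc was the member without one. The 2 E-boxes of Xirp2 overlap each other, and no other matches overlapped. A MEF2 match was present in Xirp2 alone (74 to 65 bases upstream), against 2.92% of promoters, and the CArG box in 0 of 8 members, against 1.47%. The matches did not sort by direction: MCAT letters preceded Flnc, which was higher, and Ankrd23, which was lower. A match describes letters only and is not a bound site.

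Of the 10 members, 6 were called by edgeR's quasi-likelihood test at an adjusted p under 0.05, 3 higher and 3 lower in Myf5Cre-Pcyt2. Among all 14715 genes tested, 18.6% were called, 9.02% higher and 9.59% lower. Igfn1, Ankrd2 and Flnc were called higher, and Ankrd23, Ky and Xirp2 lower. Ankrd1, Xirp1, Csrp3 and Myot were not called. The 6 called members were also those whose group ranges did not overlap, which held for 39% of all genes tested. Since the members were picked from this contrast, nothing is read from these counts or from the single calls. The median log2 fold change of the members was 0.27, against −0.00 over all genes tested, and the members ranged from −1.19 to 3.01. Without Myf5Cre-Pcyt2 replicate 2 the calls were Igfn1, Flnc and Ankrd23 only, 3 in place of 6.

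**Figure D1:**
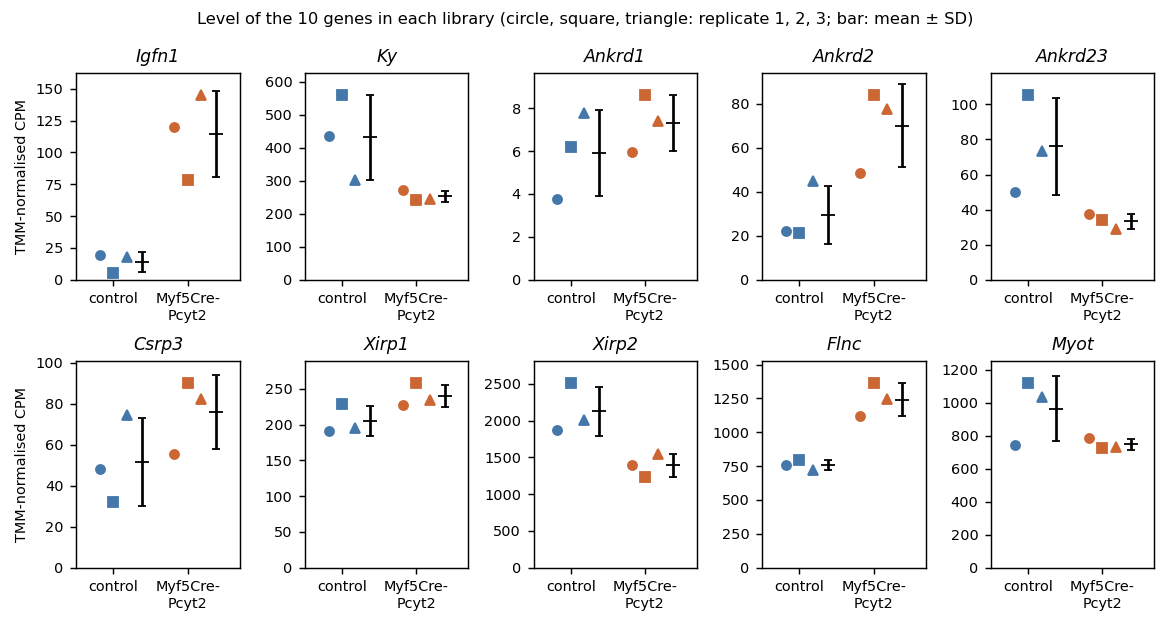
Level of each of the 10 genes in every library, in TMM-normalised CPM (counts scaled to the library total with edgeR's TMM factors, linear axes from 0, a separate scale for each gene). Circles, squares and triangles are replicates 1, 2 and 3 of control (blue) and Myf5Cre-Pcyt2 (orange), and the bars are mean ± SD (n = 3). Igfn1 lies between 5.16 and 19.4 CPM in the controls and between 78.2 and 145 CPM in Myf5Cre-Pcyt2, while the groups overlap for Ankrd1, Csrp3, Xirp1 and Myot.

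**Figure D2:**
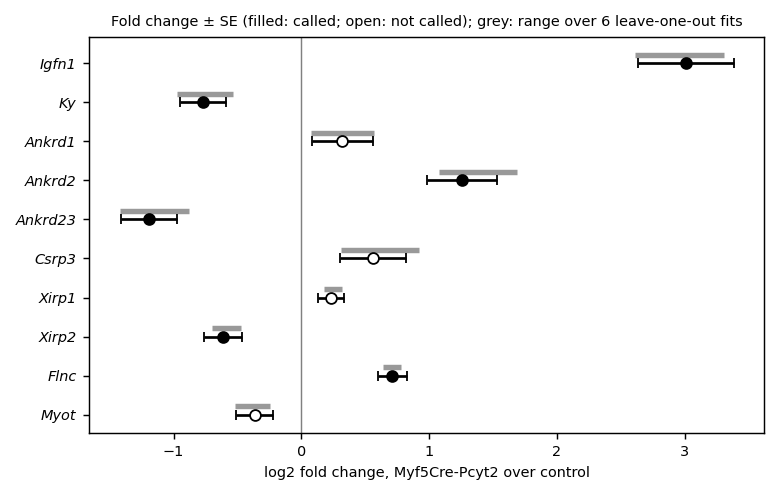
Log2 fold change of each gene, Myf5Cre-Pcyt2 over control, with its standard error from edgeR's fit on all libraries. Values run from 3.01 for Igfn1 to −1.19 for Ankrd23, and family members such as Ankrd2 and Ankrd23 lie on opposite sides of 0.

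Libraries held 17775898 to 20446920 counts. No 2 libraries of a group looked like copies, since their counts differed with a mean chi-square of 11.7 to 33.0 per gene, where counting noise alone gives about 1. By sex-linked genes the third replicate of either group was male, and all other libraries were female. Pcyt2 itself had 16.9 ± 1.52 CPM in the controls and 13.9 ± 1.23 CPM in Myf5Cre-Pcyt2 (SD, n = 3). With a log2 fold change of −0.28 (SE 0.11) it was not called (adjusted p = 0.0944), and scaling by library size alone gave −0.07. Since the deleted part of Pcyt2 is not stated, these counts cannot check the genotype labels. Skeletal muscle markers such as Ckm and Acta1 were abundant in every library, with summed levels of 135082 to 192141 CPM in the controls and 88541 to 116496 CPM in Myf5Cre-Pcyt2. All members are read from whole muscle, where fewer cells of a type and less RNA per cell cannot be told apart.

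Igfn1 (ENSMUSG00000051985, GRCm38 chr1:135953578-136006342, minus strand) had the widest group difference of the 10. Its levels were 19.4, 5.16 and 18.01 CPM in control replicates 1, 2 and 3. In Myf5Cre-Pcyt2 replicates 1, 2 and 3 they were 120.1, 78.2 and 145 CPM. The lowest Myf5Cre-Pcyt2 library lay well above the highest control library. Control replicate 2 was lowest of all, with 89 counts against 366 and 311 in the other controls, so the control spread was wide relative to its mean. The means were 14.2 ± 7.84 and 114 ± 33.7 CPM (SD, n = 3), 8.03-fold apart, with a log2 fold change of 3.01 (SE 0.38). It was called higher under all 14 alternative settings, with log2 fold changes of 2.61 to 3.30.

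Ky (ENSMUSG00000035606, chr9:102505750-102546239, plus strand), the binding partner of Igfn1, differed in the opposite direction. Control replicates had 434, 558 and 301 CPM and Myf5Cre-Pcyt2 replicates 273, 242 and 244 CPM. The groups did not overlap, but control replicate 3 was close to the Myf5Cre-Pcyt2 libraries, which lay near each other. Ky was 1.71-fold lower in Myf5Cre-Pcyt2 (431 ± 129 against 253 ± 17.0 CPM, SD, n = 3), with a log2 fold change of −0.77 (SE 0.18). The call was lost without Myf5Cre-Pcyt2 replicate 2 or 3, where the log2 fold changes were −0.74 and −0.75. Set against each other within a library, there were 4.46, 0.925 and 5.98 Igfn1 counts per 100 Ky counts in control. In Myf5Cre-Pcyt2 there were 44.1, 32.3 and 59.4, and this ratio does not depend on how libraries are scaled.

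A few genes followed Igfn1 closely from library to library. Among 8498 named genes with a mean of at least 10 CPM, the highest Pearson correlations of log2 CPM with Igfn1 over the 6 libraries were those of Sytl2 (0.999), Hnrnpdl (0.995), Tent4a (0.994), Mettl9 (0.994) and Qpct (0.993). These points share their libraries and the group difference, so the values describe likeness only. Sytl2, which encodes a Rab-binding synaptotagmin-like protein, had 89.5, 58.4 and 92.1 CPM in the controls and 162, 144 and 177 CPM in Myf5Cre-Pcyt2. As for Igfn1, control replicate 2 was the lowest control and Myf5Cre-Pcyt2 replicate 2 the lowest of its group. Sytl2 was picked by its correlation with Igfn1, so this shared order is no separate observation. The group difference of Sytl2 was smaller than that of Igfn1, at 1.01 (SE 0.16) on the log2 scale. Qpct, which encodes glutaminyl cyclase, had a difference of 0.69 (SE 0.12). For Hnrnpdl, Mettl9 and Tent4a the log2 fold changes were 0.41, 0.47 and 0.30.

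Flnc (ENSMUSG00000068699, chr6:29433256-29461883, plus strand) was higher in Myf5Cre-Pcyt2, with little spread in either group. Control replicates had 759, 793 and 724 CPM, and Myf5Cre-Pcyt2 replicates had 1120.1, 1362 and 1242 CPM. The 3 controls lay close together and below every Myf5Cre-Pcyt2 library. Mean levels were 759 ± 34.6 and 1241 ± 121 CPM (SD, n = 3), a 1.64-fold difference with a log2 fold change of 0.71 (SE 0.11). Flnc was called higher under all 14 alternatives.

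Of the Xin repeat genes, whose proteins bind filamin C or actin, Xirp2 differed in the opposite direction and Xirp1 was not called. Xirp2 (ENSMUSG00000027022, chr2:67446002-67526614, plus strand) had 1869, 2509 and 2005 CPM in the controls and 1399, 1228 and 1545 CPM in Myf5Cre-Pcyt2. All Myf5Cre-Pcyt2 libraries lay below all controls, and replicate 2 of each group held that group's extreme value. It was 1.53-fold lower in Myf5Cre-Pcyt2 (2128 ± 337 against 1391 ± 159 CPM, SD, n = 3), with a log2 fold change of −0.61 (SE 0.15). That call was lost without Myf5Cre-Pcyt2 replicate 2 (log2 fold change −0.53). An antisense gene, Gm13601, shares 168 exon bases with Xirp2 and had 165 counts in all libraries together. The strand setting of the counting is not given, so reads of these bases cannot be assigned.

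Xirp1 (ENSMUSG00000079243, chr9:120013755-120023598, minus strand) had 191, 229 and 196 CPM in the controls and 228, 258 and 235 CPM in Myf5Cre-Pcyt2. The highest control, replicate 2, reached the level of the lowest Myf5Cre-Pcyt2 library, replicate 1. With means of 205 ± 20.7 and 240.0 ± 15.7 CPM (SD, n = 3) and a log2 fold change of 0.23 (SE 0.10), Xirp1 was not called. It was called higher only where libraries were scaled by their size alone, which moved it to 0.45. The balance of the pair differed between the groups: per length, Xirp1 made up 17.3, 15.7 and 16.7% of the Xirp1 and Xirp2 sum in control. In Myf5Cre-Pcyt2 it made up 25.0, 30.1 and 23.8%, with no overlap.

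The 3 muscle ankyrin repeat genes did not differ alike: Ankrd2 was higher, Ankrd23 lower, and Ankrd1 was not called. Ankrd2 (ENSMUSG00000025172, chr19:42036000-42045110, plus strand) had 22.1, 21.4 and 44.8 CPM in the controls and 48.5, 83.9 and 77.8 CPM in Myf5Cre-Pcyt2. Control replicate 3 came near Myf5Cre-Pcyt2 replicate 1, and the others were far apart. Ankrd2 was 2.38-fold higher in Myf5Cre-Pcyt2 (29.4 ± 13.3 against 70.0 ± 18.9 CPM, SD, n = 3), with a log2 fold change of 1.25 (SE 0.28). The call was lost without control replicate 2 (1.07) or Myf5Cre-Pcyt2 replicate 2 (1.103).

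Ankrd23 (ENSMUSG00000067653, chr1:36530188-36536883, minus strand), a gene also known from diabetic muscle, had 49.8, 105 and 73.3 CPM in the controls and 37.5, 33.8 and 28.7 CPM in Myf5Cre-Pcyt2. Every Myf5Cre-Pcyt2 library lay below every control, and the controls were the more scattered. It was 2.28-fold lower (76.1 ± 27.8 against 33.3 ± 4.39 CPM, SD, n = 3), with a log2 fold change of −1.19 (SE 0.22), and was called lower under all 14 alternatives. A second gene model on the same strand, Gm42417, shares 2109 of the 2697 exon bases of Ankrd23 in GENCODE and had 0 counts. How reads of shared bases were counted is not given, so the absolute level of Ankrd23 is uncertain.

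Ankrd1 (ENSMUSG00000024803, chr19:36111961-36120099, minus strand), the member best known from stressed heart muscle, was scarce. Its levels were 3.76, 6.21 and 7.76 CPM in the controls and 5.98, 8.60 and 7.39 CPM in Myf5Cre-Pcyt2, from 71 to 197 counts per library. The groups overlapped, and with a log2 fold change of 0.32 (SE 0.24) it was not called under any setting. Within the family, summed per length, Ankrd2 made up 49.5, 31.4 and 56.9% in the controls and 72.7, 82.6 and 83.8% in Myf5Cre-Pcyt2. Ankrd23 made up 47.2, 65.0 and 39.2% in the controls and 23.7, 14.0 and 13.1% in Myf5Cre-Pcyt2. The share of Ankrd1 stayed between 3.14 and 3.88% in all 6 libraries. On this scale the shares of Ankrd2 and Ankrd23 crossed from library to library in control, whereas Ankrd2 was the larger in each Myf5Cre-Pcyt2 library. All shares of the family, and which gene is the larger, depend on the uncertain level of Ankrd23.

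**Figure D3:**
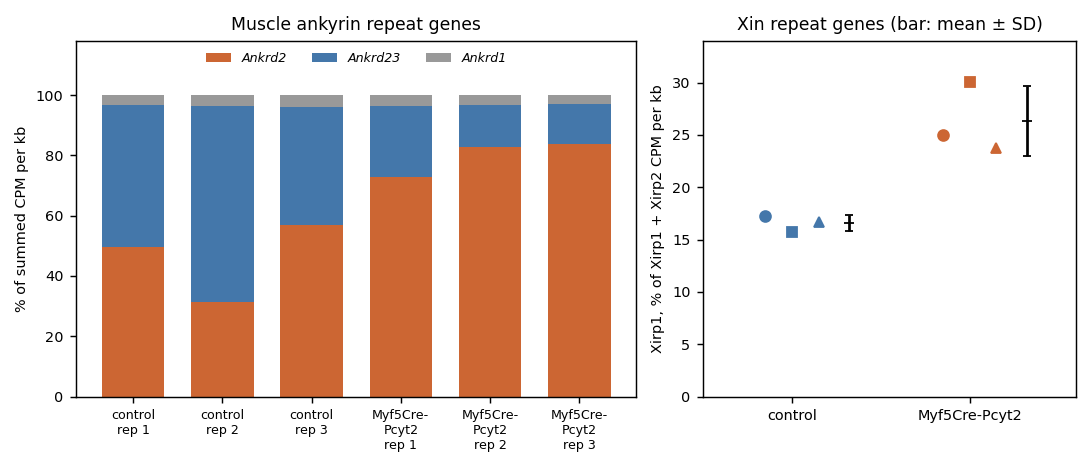
Shares of gene families summed per length in each library (percent): the muscle ankyrin repeat genes and Xirp1 within the Xirp pair. Ankrd2 takes 31.4 to 56.9% of its family in control and 72.7 to 83.8% in Myf5Cre-Pcyt2, and Xirp1 takes 15.7 to 17.3% against 23.8 to 30.1% of its pair. The shares of the ankyrin repeat genes depend on the uncertain level of Ankrd23.

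Csrp3 (ENSMUSG00000030470, chr7:48830398-48848033, minus strand), which encodes the muscle LIM protein of the Z-disc, had 48.2, 31.8 and 74.6 CPM in the controls and 55.5, 89.9 and 82.0 CPM in Myf5Cre-Pcyt2. Control replicate 3 lay inside the Myf5Cre-Pcyt2 range, so the groups overlapped. The means of 51.5 ± 21.6 and 75.8 ± 18.02 CPM (SD, n = 3) gave a log2 fold change of 0.56 (SE 0.26), which was not called. Without control replicate 3 it was called higher, at 0.92. It was also called higher where no filter on low counts was used, though its log2 fold change stayed at 0.56. As a share of the Csrp1, Csrp2 and Csrp3 sum per length, Csrp3 made up 27.3, 21.8 and 34.8% in the controls and 28.5, 37.8 and 35.2% in Myf5Cre-Pcyt2, with overlap.

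Myot (ENSMUSG00000024471, chr18:44334074-44355724, plus strand) encodes myotilin, which bundles actin and binds alpha-actinin and filamin C. It had 742, 1118 and 1034 CPM in the controls and 788, 725 and 733 CPM in Myf5Cre-Pcyt2. Control replicate 1 lay among the Myf5Cre-Pcyt2 libraries, and the other controls were higher. With means of 965 ± 197 and 748 ± 34.2 CPM (SD, n = 3) and a log2 fold change of −0.37 (SE 0.15), Myot was not called. It was called lower without control replicate 1 (−0.52), by DESeq2 (−0.37) and without a filter on low counts (−0.37).

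Levels of different genes can be set side by side only per length, in CPM per kilobase of exon. The place of Ankrd23 is uncertain in both groups, as its absolute level is. On that scale Myot was the most abundant member in control, at 437 ± 89.3, followed by Xirp2 at 178 ± 28.1. Flnc (80.7 ± 3.68) and Ky (73.3 ± 21.9) came next and overlapped each other. Xirp1 (35.1 ± 3.54), Ankrd23 (28.2 ± 10.3), Ankrd2 (25.9 ± 11.7) and Csrp3 (19.3 ± 8.08) formed a middle group in which each overlapped its neighbour. Ankrd1 (2.05 ± 0.699) and Igfn1 (1.58 ± 0.872) were lowest and overlapped.

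In Myf5Cre-Pcyt2 the order per length differed for most members but not for Myot, again highest at 339 ± 15.5 CPM per kilobase. Flnc (132 ± 12.8) and Xirp2 (116 ± 13.2) overlapped below it. Ankrd2 (61.5 ± 16.6) overlapped Ky (43.0 ± 2.90), and Ky overlapped Xirp1 (41.1 ± 2.69). Csrp3 followed at 28.4 ± 6.75, and Igfn1 (12.7 ± 3.75) reached the level of Ankrd23 (12.4 ± 1.63), with Ankrd1 last at 2.54 ± 0.455. By rank of the level per length among 14710 tested genes with a length, Igfn1 stood at 9810 in control and 2665 in Myf5Cre-Pcyt2. Ankrd23 stood at 1282 and 2765, and Ankrd2 at 1416 and 519. The ranks of Ankrd23 rest on its uncertain absolute level. Myot, at 62 and 71, was among the most abundant genes of the muscle in both groups.

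Within the control group the members did not vary alike. Control replicate 2 had the lowest level of Igfn1, Csrp3 and Ankrd2 and the highest of Ankrd23, Ky, Xirp2, Flnc, Xirp1 and Myot. Control replicate 3, the male control, had the highest Ankrd1, Ankrd2 and Csrp3 and the lowest Ky and Flnc. These libraries also differed in fibre-type genes. The summed level of 11 slow-fibre genes was 1178, 1037 and 2260.5 CPM in the controls and 2111, 2474 and 2523 CPM in Myf5Cre-Pcyt2. The summed level of 11 adult fast-fibre genes was 167413, 221459 and 153819.8 CPM in the controls and 127244, 88712 and 104836 CPM in Myf5Cre-Pcyt2. Control replicate 2 thus had the lowest slow-fibre and the highest fast-fibre sum of all 6 libraries, and control replicate 3 had a slow-fibre sum inside the Myf5Cre-Pcyt2 range. The 2 libraries with the lowest slow-fibre sums, control replicates 1 and 2, also had the lowest Ankrd2 and Csrp3. The library with the highest fast-fibre sum, control replicate 2, also had the highest Ankrd23 and Ky. The part of fibre type in the members' group differences was not tested.

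**Figure D4:**
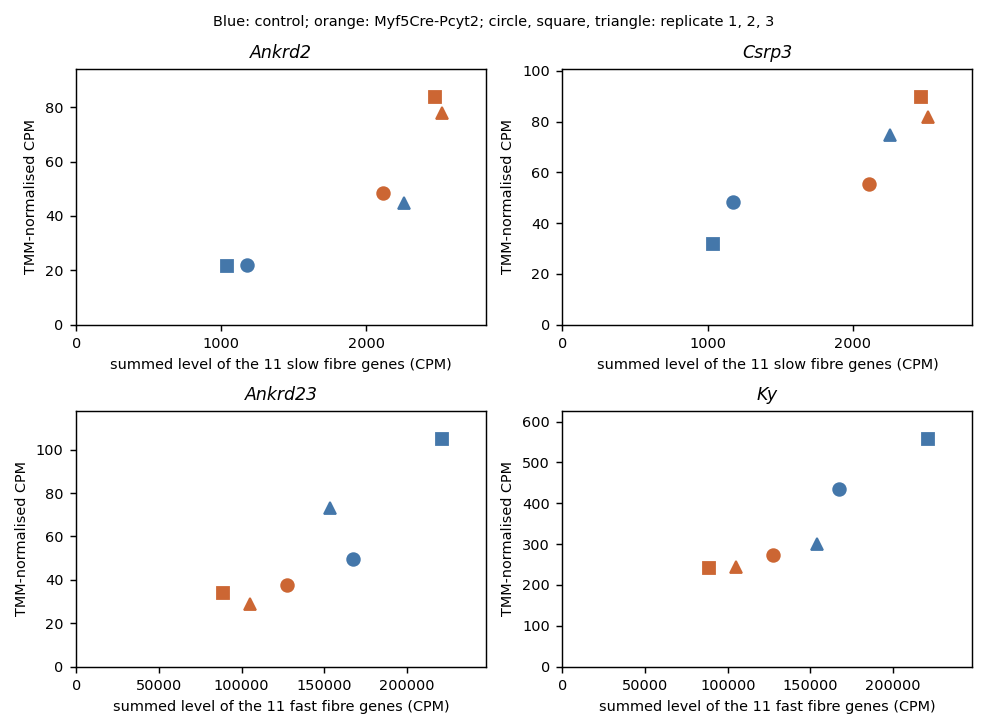
Level of Ankrd2 and Csrp3 (TMM-normalised CPM) against the summed level of 11 slow-fibre genes, and of Ankrd23 and Ky against that of 11 fast-fibre genes (CPM), in each library, with linear axes from 0. Blue is control, orange Myf5Cre-Pcyt2, and circle, square and triangle are replicates 1, 2 and 3. Control replicate 3 lies beside the Myf5Cre-Pcyt2 libraries for Ankrd2 (44.8 CPM) and Csrp3 (74.6 CPM).

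Of the 11 slow-fibre genes 2 rose and 0 fell, with a median log2 fold change of 0.73, against −0.00 over all genes. The share called, 18.2%, is near the 18.6% of all genes. The genes were Myh7b, a slow-type myosin heavy chain gene (log2 fold change 1.06, SE 0.15, adjusted p = 0.00292), and Casq2, the slow-fibre and cardiac calsequestrin (0.93, SE 0.22, adjusted p = 0.0178). The Casq2 call was lost without Myf5Cre-Pcyt2 replicate 2, and without control replicate 3 the count of slow-fibre genes that rose was 10 in place of 2. Of the 11 fast-fibre genes 0 rose and 8 fell, with a median of −0.69. Examples were the calcium buffer gene Pvalb (−1.44, SE 0.28, adjusted p = 0.00869) and the myosin-binding protein gene Mybpc2 (−1.15, SE 0.22, adjusted p = 0.00779). The fast-fibre count was 2 without Myf5Cre-Pcyt2 replicate 2 or replicate 3 and 4 without control replicate 2.

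Among 25 genes whose proteins bind or work with the members, 1 rose and 8 fell, with a median log2 fold change of −0.17. The share called was 36%, against 18.6% of all genes tested. As the lists were chosen with earlier results known, no enrichment is read from such shares. When libraries were scaled by size alone the split was 4 higher and 4 lower. The calsarcin genes Myoz3 (−1.08, SE 0.13, adjusted p = 0.0017) and Myoz1 (−0.61, SE 0.14, adjusted p = 0.0145), whose proteins bind filamin C at the Z-disc, both fell, while Flnc was higher. Eef1a2, the muscle translation elongation factor that binds Igfn1, fell (−0.81, SE 0.14, adjusted p = 0.00569), opposite to Igfn1. Actn3, the alpha-actinin of fast fibres, also fell (−0.88, SE 0.20, adjusted p = 0.0143). The calls of Myoz1 and Actn3 were lost without Myf5Cre-Pcyt2 replicate 2 or 3. The count of partners called was 4 without control replicate 2 and 2 without Myf5Cre-Pcyt2 replicate 2 or 3.

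Of 11 tested paralogs from the members' families, 2 rose and 2 fell, with a median log2 fold change of 0.02, and with scaling by size alone 4 rose and 2 fell. With TMM scaling 36.4% were called, against 18.6% of all genes. Flna, the widely expressed filamin, rose less than the difference seen in Flnc (0.38, SE 0.11, adjusted p = 0.037), and that call was lost with a covariate for sex and without control replicate 2 or 3 or Myf5Cre-Pcyt2 replicate 2 or 3. Per length, Flnc made up 68.5, 72.0 and 71.0% of all filamin in control and 75.8, 75.3 and 74.3% in Myf5Cre-Pcyt2, a small upward difference without overlap. Among the myosin-binding proteins, which share immunoglobulin and fibronectin domains with Igfn1, the slow-type Mybpc1 rose (0.47, SE 0.13, adjusted p = 0.0284). The fast-type Mybpc2 fell, as given above, and so did Mybph (−0.87, SE 0.19, adjusted p = 0.0136). The Mybpc1 call was lost with a covariate for sex and without control replicate 1 or 2 or Myf5Cre-Pcyt2 replicate 2 or 3, and the Mybph call without Myf5Cre-Pcyt2 replicate 2. The count of paralogs called was 1 or 2 without control replicate 2 or Myf5Cre-Pcyt2 replicate 2 or 3.

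Genes of mechanosensing and of the YAP and TEAD pathway, which reads tension in the cell's cytoskeleton, included 5 that rose and 1 that fell among 21 tested. Their median log2 fold change was 0.16, and 28.6% were called, against 18.6% of all genes. The stretch-gated channel genes Piezo2 (0.65, SE 0.13, adjusted p = 0.0079) and Piezo1 (0.56, SE 0.11, adjusted p = 0.0101) rose. So did Axl, a receptor kinase gene and YAP target (0.49, SE 0.09, adjusted p = 0.00619), and the TEAD cofactor gene Vgll3 (0.45, SE 0.11, adjusted p = 0.0201). The gene that fell was Ccn1, a YAP target for a secreted matrix protein (−0.62, SE 0.18, adjusted p = 0.0349). Its relative Ccn2, also a YAP target, was not called (−0.16, SE 0.12, adjusted p = 0.398; 0.053 when libraries were scaled by size alone). Ccn1 was no longer called under that scaling or without any 1 library other than control replicate 1. The Piezo1 and Vgll3 calls were lost without Myf5Cre-Pcyt2 replicate 2, that of Vgll3 also without replicate 3, and 2 genes were called without replicate 2. When libraries were scaled by size alone 13 of the 21 were called, all higher, and the median log2 fold change of all genes moved by 0.21. Ankrd1, a classical target of YAP, was not called under any setting.

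Of 12 genes of serum response factor and its actin-regulated coactivators, 0 rose and 2 fell, with a median log2 fold change of −0.05. They were Srf itself (−0.36, SE 0.08, adjusted p = 0.0166) and Abra, whose protein STARS activates this pathway through actin (−0.56, SE 0.10, adjusted p = 0.00629). When libraries were scaled by size alone the split was 4 higher and 2 lower. The Srf call was lost without control replicate 2 or Myf5Cre-Pcyt2 replicate 2 or 3, each of which left 1 of the 2 calls. Srf was also not called under that scaling. By edgeR 18.6% of all genes were called, against 16.7% of these 12, a share near that background.

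Genes of denervated, injured or regenerating muscle had the highest share of rises among the 7 gene lists, cell type markers apart, with 10 of 14 rising and 0 falling and a median log2 fold change of 0.68. The neonatal myosin gene Myh8 rose by about as much as the difference seen in Igfn1 (3.04, SE 0.43, adjusted p = 0.00306). The embryonic myosin gene Myh3 (1.63, SE 0.25, adjusted p = 0.00401) and the adhesion molecule gene Ncam1 (0.78, SE 0.09, adjusted p = 0.00136) rose as well. The count was 6 without control replicate 2 or Myf5Cre-Pcyt2 replicate 2. The pups were 10 days old and the list holds embryonic and neonatal myosin genes. It therefore cannot tell immature muscle from denervated or injured muscle, and which of these the rises reflect was not tested.

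**Figure D5:**
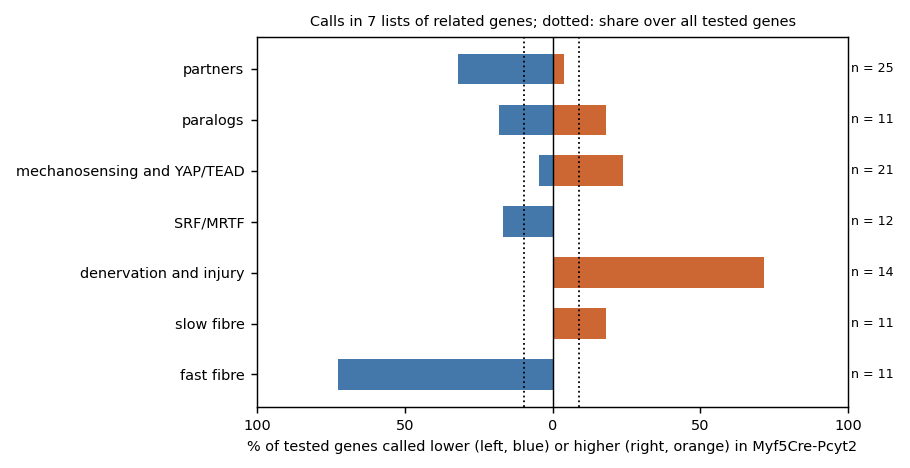
Share of the tested genes of each list called higher and lower in Myf5Cre-Pcyt2 (percent, bars from 0), beside all 14715 genes tested (9.02% higher, 9.59% lower). Among the denervation and injury genes 10 of 14 were called higher, and among the fast-fibre genes 8 of 11 were called lower.

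Several members are also made outside skeletal muscle fibres, so markers of other cells were read in the same libraries. For comparison, 9.02% of all genes tested were called higher and 9.59% lower. Ankrd1, Ankrd2, Csrp3 and Xirp1 are made in heart as well. Of 5 tested cardiac markers 3 rose, with a summed level of 44.7 to 99.98 CPM in the controls and 134 to 239 CPM in Myf5Cre-Pcyt2. The heart genes Nppb, at 0 counts in every library, and Nppa and Myl7, at no more than 3 and 1 counts, were at or near 0. Tendon and myotendinous junction markers, where Xirp1 and Xirp2 gather, summed to 480.3 to 686 CPM in the controls and 625 to 769 CPM in Myf5Cre-Pcyt2, and 3 of 7 rose. Their part in the members' differences was not tested.

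Schwann cell markers summed to 437 to 538 CPM in the controls and 653 to 887 CPM in Myf5Cre-Pcyt2, and 5 of 6 rose. Fibroblast markers summed to 8372 to 10904 CPM in the controls and 11517 to 13130.0 CPM in Myf5Cre-Pcyt2, with 1 of 5 called. Smooth muscle markers, relevant to Flna and Csrp1, summed to 3761 to 4137 CPM in the controls and 3203 to 3542 CPM in Myf5Cre-Pcyt2, with 1 of 7 lower. Des alone, also among the skeletal muscle markers, had 2680 to 3106 CPM in the controls and 2535 to 2699 CPM in Myf5Cre-Pcyt2. The smooth muscle sum is therefore not a reading of smooth muscle cells alone. For endothelium, macrophages and adipocytes 0 of 4 markers each were called, and their summed ranges overlapped between the groups. The part of these cell types in the members' differences was not tested.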

How the data were processed

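RNA of quadriceps from 6 pups was sequenced, 3 per group as the labels give them. The authors deposited raw counts per Ensembl gene. Per the submitters' processing notes, the tools were Bowtie2 2.3.4.1, featureCounts from Subread 1.6.2 and Trim Galore 0.5.0, with the build GRCm38/mm10. The sources used here give neither the tools' roles nor the annotation release or strand setting. An aligner that does not split reads at introns can lose reads across exon junctions, and reads shared between overlapping genes or paralogs have uncertain counts.

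The members, the gene lists and the tests were chosen with earlier results of these data known. Symbols, positions and exon lengths came from GENCODE M21, which held 54495 of the 54532 genes. Counts were filtered with filterByExpr (14715 genes kept), scaled with TMM and tested two-sided with the quasi-likelihood test of edgeR (edgeR 4.0.16, limma 3.58.1, R 4.3.3), with Benjamini-Hochberg adjustment over all tested genes and a threshold of 0.05. A gene is called, and said to rise or fall, where it passes. Log2 fold changes compare Myf5Cre-Pcyt2 with control, with their standard errors (SE). CPM are TMM-normalised, and SDs are over 3 libraries. Litters are not named in the labels, and p-values set the group difference against the spread of these libraries only. Tables and figures were made with Python 3.11.15, pandas 2.3.3 and matplotlib 3.10.9. The fit was tested on data simulated with the same spread for all genes. It recovered 42.4% of 1.5-fold and 94.0% of 2.0-fold differences, so a gene that was not called can still differ.

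The named genes are the 10 members, Pcyt2 and Myf5, up to 4 genes past the threshold with the smallest p in each list, and the 5 genes most correlated with Igfn1. The rule also selected 1 list gene that is not reported here and stays in the counts. Other genes named were singled out after their values were seen. Myf5 had 4.71 ± 0.922 and 5.18 ± 0.337 CPM (log2 fold change 0.13, SE 0.18, adjusted p = 0.633). Alternatives were DESeq2 1.42.0, its size factors, library size alone, limma-voom, no filter on low counts, at least 1 CPM in 3 libraries, leaving out each library, sex as a covariate and a replicate block.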

Additional observations from a re-analysis of the deposited data

How the results depend on the processing

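Under the 14 alternatives no member changed sign, and of the other named genes only Ccn2, not called, did (0.053 with library size alone, against −0.16). Igfn1, Flnc and Ankrd23 were called under all of them, and Ankrd1 under none. Because the members were picked from this contrast, this describes only how their calls depend on the settings. The number of members called was 6, and 3 to 7 when 1 library was left out. Over all genes it was 2739, and 846 to 2785 when 1 library was left out. For the lists the leave-one-out ranges were 2 to 10 for partners (9 with all libraries), 1 to 5 for paralogs (4), 2 to 8 for mechanosensing (6), 1 to 3 for serum response factor genes (2), 6 to 11 for denervation and injury (10), 1 to 10 for slow-fibre (2) and 2 to 8 for fast-fibre genes (8). Libraries with the same replicate number did not deviate together (correlations of −0.11, −0.17 and 0.02 for numbers 1, 2 and 3). Libraries with different numbers gave −0.06 to 0.16. Pairing by number was thus not seen, but with 3 libraries per group this check cannot exclude it. With a replicate block 1731 genes were called, 4 partners, 2 paralogs, 6 slow-fibre and 2 fast-fibre genes, and 5 members, since Xirp2 was no longer called. The calls of Actn3, Myoz1, Mybpc1 and Flna among the list genes named above were also lost with the block. A covariate for sex gave 2 paralogs, 6 slow-fibre and 4 fast-fibre genes. Library size alone gave 13 mechanosensing, 6 serum response factor (4 higher, 2 lower) and 5 slow-fibre genes and turned the partners' split from 1 higher and 8 lower to 4 and 4, and of 3724 genes called 86.6% were higher, against 48.5% with TMM. DESeq2 gave 4 serum response factor genes, and no filter on low counts gave 4 of these and 9 slow-fibre genes. The cause of these differences was not tested. The scarcest member, Ankrd1, had 71 to 197 counts per library.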
